A study of Mus musculus with 6 samples.

Results

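A group of 9 genes of inhibitory transmission was followed in RNA of the substantia nigra (SN), compared between MitoParks and their littermate controls. They were taken from the deposited table by gene symbol, and all of them were found among its 24054 genes and passed the filter on low counts that left 14568 genes for testing. Gad1, Gad2 and Slc32a1 make and load the transmitter GABA, Slc6a11, Slc6a5 and Slc6a9 carry GABA or glycine back into cells, Glra1 and Glrb encode subunits of the glycine receptor, and Pvalb encodes parvalbumin, a calcium-binding protein of fast-firing neurons. Slc6a5 passed the filter through the MitoPark group only.

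The MitoPark mice carried Cre at 1 copy of the dopamine transporter gene together with loxP sites at both copies of Tfam (Dat +/Cre, TFAM LoxP/LoxP), so Tfam, the mitochondrial transcription factor A gene, is lost in cells that express the transporter. The littermate controls carried no Cre and loxP at 1 copy of Tfam (TFAM +/LoxP, Dat +/+), and both groups were on a C57BL/6 background, untreated and 16 to 17 weeks old by the series labels. There were 3 mice per group, and polyadenylated RNA was sequenced from each. The labels name the tissue as brain and the methods name it as the SN.

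GABA is made from glutamate by the glutamate decarboxylases and is pumped into synaptic vesicles by the vesicular transporter encoded by Slc32a1, which also carries glycine. The pars reticulata of the SN consists largely of GABAergic projection neurons, many of them containing parvalbumin, and these lie next to the dopaminergic (DAergic) neurons of the pars compacta. Glycine is the main fast inhibitory transmitter of the hindbrain and spinal cord, where glycinergic neurons are marked by the transporter encoded by Slc6a5.

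Sequencing depth lay between 8140777 and 10528602 expected counts in a mouse, so that 3 counts, taken here as the limit of detection, corresponded to between 0.285 and 0.366 CPM (counts scaled to a common library size, with TMM factors for library composition). Tfam was lower in each MitoPark than in each control, with a log2 fold change of -0.40 that did not reach the 1.5-fold cutoff (edgeR's quasi-likelihood test, unadjusted p = 0.00565, adjusted p = 0.999). The summed level of 9 DAergic genes ranged from 336 to 1070 CPM in controls and from 196 to 359 CPM in MitoParks, and the highest value belonged to control 3. Slc6a3, which encodes the dopamine transporter, had 72.6, 65.3 and 383 CPM in controls and between 13.3 and 51.1 CPM in MitoParks. Its groups did not overlap, as for 4.71% of all genes tested, and those of Th, which encodes tyrosine hydroxylase, overlapped. The MitoParks carried Cre at 1 copy of Slc6a3 and the controls carried none, and how far this entered the Slc6a3 values was not tested. Libraries also stood apart in genes of neighbouring regions. The 4 cerebellar genes summed to 82.7 CPM in control 3 and 102 CPM in MitoPark 2 and to between 22.6 and 36.0 CPM in the other 4 mice, and 3 serotonergic genes summed to 34.6 CPM in MitoPark 3 and to at most 0.977 CPM elsewhere. The 6 oligodendrocyte genes ranged from 6700 to 17800 CPM in controls and from 9200 to 15100 CPM in MitoParks. In bulk tissue, fewer cells of a type and less RNA per cell cannot be told apart.

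Of the 9 genes, 1 was a differentially expressed gene (DEG) by both cutoffs (unadjusted p under 0.05, fold change over 1.5 in either direction), against 0.577% of all genes tested. That gene was Slc6a5, which was also the only one with an unadjusted p below 0.05, a threshold passed by 1.11% of all genes. MitoPark 2 held 60 of its 61 counts in MitoParks, and without that mouse the gene was not tested. The count of called genes therefore says nothing about the 9 genes as a set. None of the 9 genes had an adjusted p below 0.05 after the Benjamini-Hochberg correction in edgeR, and each stood at 0.999. The groups overlapped for all 9 genes, whereas they did not overlap for 4.71% of all genes tested. Of the 9 log2 fold changes, 8 were above 0, against 7077 of all 14568 genes tested. Their median was 0.19, and over all genes tested the median was -0.0047. The value of Slc6a5 had to be positive, since it passed the filter through the MitoPark group only. Gad1, Gad2 and Slc32a1 varied together over the 6 mice (Pearson r from 0.865 to 0.938). The signs are therefore not separate observations and say nothing about the 9 genes as a set. The signs of Gad2, Slc32a1, Slc6a9 and Pvalb turned when certain single mice were left out.

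**Figure D1:**
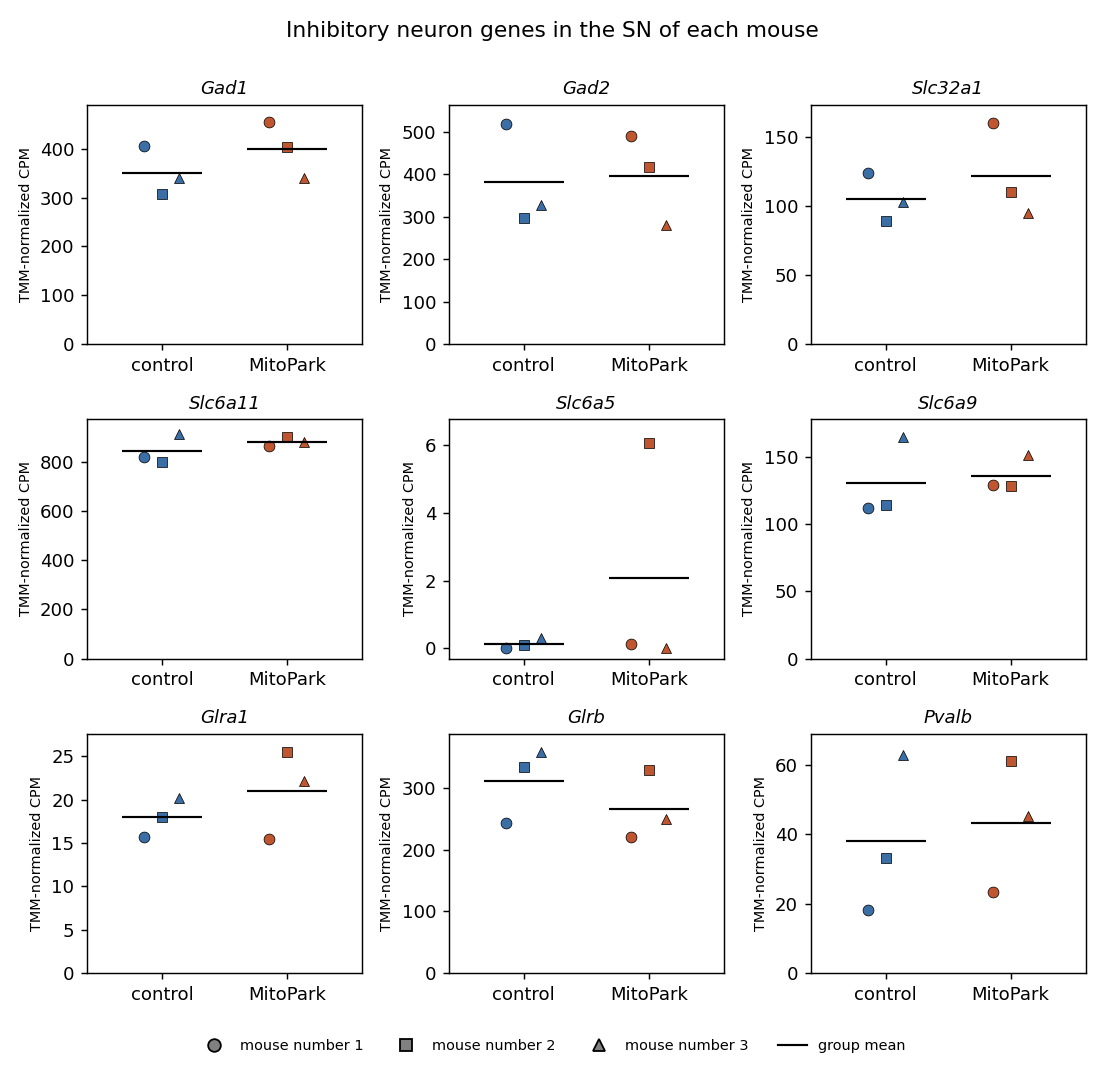
TMM-normalized CPM (y axis) of each of the 9 genes in the 3 controls and 3 MitoParks, with 1 point per mouse, the symbol giving the mouse number and the line the group mean. The groups overlap in every panel, and Slc6a5 stands out at 6.07 CPM in MitoPark 2 only.

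Gad1 encodes GAD67, the decarboxylase that supplies most of the GABA in neurons. It was at 406, 307 and 340 CPM in controls 1, 2 and 3 and at 455, 404 and 340 CPM in MitoPark mice 1, 2 and 3. The highest value was in MitoPark 1, but control 1 exceeded the other two MitoParks. Gad1 had a log2 fold change of 0.19 (standard error 0.15, 95% interval -0.15 to 0.52, unadjusted p = 0.236).

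Gad2 encodes GAD65, the decarboxylase found at synaptic terminals. It was at 520, 297 and 327 CPM in the controls and at 491, 417 and 280 CPM in MitoPark mice, so the highest and the lowest mouse came from different groups and the ranges were nearly the same. Its log2 fold change of 0.06 (standard error 0.25) had an interval from -0.50 to 0.61, which allows for anything between 0.707-fold and 1.53-fold of the control level (unadjusted p = 0.827).

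Slc32a1, the vesicular GABA and glycine transporter gene, was at 124, 89.5 and 103 CPM in the controls and at 160, 110 and 95.1 CPM in MitoPark mice. As for Gad1, MitoPark 1 was the highest mouse, while MitoPark 3 was below control 1 and control 3. The log2 fold change was 0.21 (standard error 0.20, interval -0.23 to 0.65, unadjusted p = 0.313). Means were 105 ± 17.6 CPM in controls and 122 ± 33.9 CPM in MitoParks (SD, n = 3 each).

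Gad1, Gad2 and Slc32a1 put the mice of each group in the same order. For all 3 genes, control 1 was the highest control, control 2 the lowest control, MitoPark 1 the highest MitoPark and MitoPark 3 the lowest MitoPark. All 3 genes lie on chromosome 2, at separate places. Because they varied together, their promoter windows are shown, from 250 bases before to 50 bases after the annotated start, as given by RefSeq for the build GRCm38.p6. The table matched 8 of the 9 genes by symbol. Capitals mark the GC box GGGCGG on either strand.
Gad1 (chr2:70561879-70562178, plus strand): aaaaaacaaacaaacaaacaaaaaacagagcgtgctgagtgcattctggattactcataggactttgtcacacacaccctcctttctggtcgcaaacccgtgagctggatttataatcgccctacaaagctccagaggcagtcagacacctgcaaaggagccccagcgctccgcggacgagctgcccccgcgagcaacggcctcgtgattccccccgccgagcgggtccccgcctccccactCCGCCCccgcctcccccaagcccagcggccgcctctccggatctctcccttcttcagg
Gad2 (chr2:22622077-22622376, plus strand): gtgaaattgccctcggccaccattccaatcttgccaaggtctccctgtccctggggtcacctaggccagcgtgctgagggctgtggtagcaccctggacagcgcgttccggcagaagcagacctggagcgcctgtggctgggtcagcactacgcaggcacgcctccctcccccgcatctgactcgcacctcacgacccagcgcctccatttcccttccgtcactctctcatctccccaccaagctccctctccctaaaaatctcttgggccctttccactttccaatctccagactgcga
Slc32a1 (chr2:158610508-158610807, plus strand): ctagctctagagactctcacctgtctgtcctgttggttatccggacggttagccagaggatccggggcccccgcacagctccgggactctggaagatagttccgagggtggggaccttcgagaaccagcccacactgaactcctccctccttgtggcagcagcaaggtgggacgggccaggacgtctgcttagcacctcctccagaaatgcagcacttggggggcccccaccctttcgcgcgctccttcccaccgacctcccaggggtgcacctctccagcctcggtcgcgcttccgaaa

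The GC contents of these windows were 60.0% for Gad1, 61.3% for Gad2 and 63.3% for Slc32a1, against a median of 52.7% over 32851 windows of the same length. The GC box was present once in the Gad1 window and in neither of the others, and 35.7% of all windows hold it. A second motif, AGATAA on either strand, which GATA factors can recognize, was in none of the 3 windows and in 11.2% of all windows.

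Genes outside the 9 that were most like this profile were found by Pearson correlation with the mean standardised log2 level of Gad1, Gad2 and Slc32a1, over the 6 mice, among 10432 genes with a mean of at least 10 CPM. They were Tacr3 (r = 0.985), Pigk (r = 0.985), Zswim4 (r = 0.982), Nup50 (r = 0.98) and Grik3 (r = 0.977). Tacr3 encodes a neurokinin receptor and was at 30.6, 25.2 and 27.8 CPM in controls and at 32.3, 29.1 and 25.6 CPM in MitoPark mice. Grik3, which encodes a kainate receptor subunit, ranged from 64.1 to 102 CPM. These correlations are descriptions over 6 libraries that also share depth and tissue composition. The genes were picked as the 5 highest of 10432 over only 6 mice, so values this high can arise from the picking alone.

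Parvalbumin RNA took another course. Pvalb was at 18.2, 33.2 and 62.8 CPM in controls 1, 2 and 3 and at 23.4, 61.2 and 45.4 CPM in MitoPark mice 1, 2 and 3, a range of more than 3-fold within the controls alone. Its lowest mice were control 1 and MitoPark 1, the same mice in which Gad1, Gad2 and Slc32a1 were highest within their groups. The log2 fold change was 0.19 with a standard error of 0.43 and an interval from -0.78 to 1.15 (unadjusted p = 0.673). Pvalb passed both cutoffs when control 3 was left out (log2 fold change 0.75, unadjusted p = 0.0489), and its sign turned without control 1 (-0.14) or without MitoPark 2 (-0.14). Control 3 and MitoPark 2, the mice with the most Pvalb, were also those with the most RNA of the 4 cerebellar genes. Among these genes was Gabra6, at 13.4 and 11.1 CPM against at most 1.56 CPM elsewhere. MitoPark 3, next for Pvalb at 45.4 CPM, had a cerebellar sum of only 26.1 CPM. Control 3, MitoPark 2 and MitoPark 3 were also the 3 highest mice for the summed oligodendrocyte genes. Parvalbumin is found in cerebellar interneurons and Purkinje cells as well, but a part of cerebellar tissue in the Pvalb values was not tested. Without control 3 and MitoPark 2, a setting chosen after seeing the data, the log2 fold change of Pvalb was 0.42 (unadjusted p = 0.207).

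Neither of the abundant transporter genes, Slc6a11 and Slc6a9, passed the test. Slc6a11 encodes GAT3, the GABA transporter of astrocytes, and was at 818, 800 and 912 CPM in controls and at 865, 900 and 879 CPM in MitoPark mice. It had the narrowest interval of the 9 genes, from -0.19 to 0.32 around a log2 fold change of 0.06 (standard error 0.11, unadjusted p = 0.583), so a change of 1.5-fold in either direction lay outside it.

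Slc6a9 encodes GlyT1, the mainly glial glycine transporter. It was at 112, 114 and 165 CPM in controls and at 129, 128 and 151 CPM in MitoPark mice, with control 3 above all MitoParks. Slc6a9 had a log2 fold change of 0.06 (standard error 0.16, interval -0.30 to 0.42, unadjusted p = 0.716). The 6 astrocyte genes in sum ranged from 3020 to 3610 CPM in controls and from 3210 to 3840 CPM in MitoParks, and the largest difference among them was that of Gfap (log2 fold change 0.70, unadjusted p = 0.0548).

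**Figure D2:**
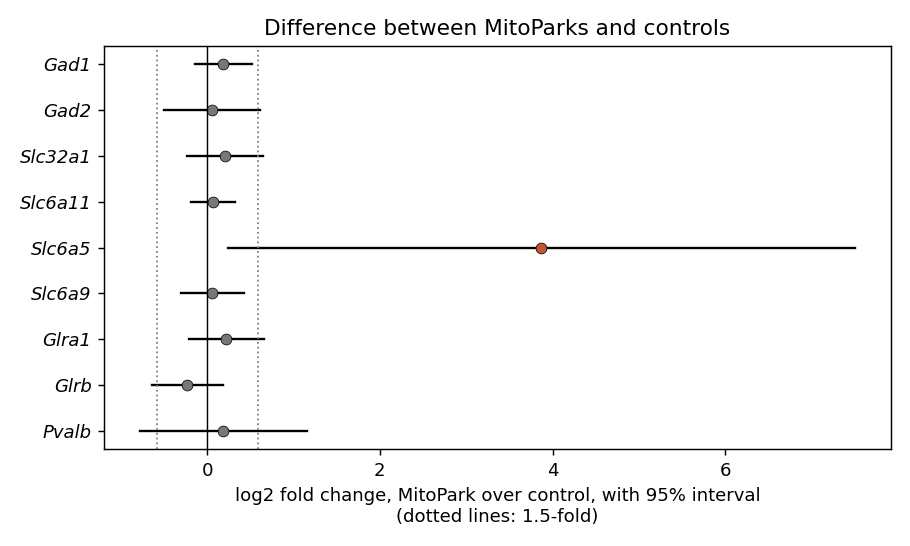
Log2 fold change of each gene in MitoParks over controls (x axis) with its 95% interval from edgeR's quasi-likelihood fit; the solid line marks no change and the dotted lines a 1.5-fold change. Only the interval of Slc6a5, from 0.24 to 7.5, lies to one side of 0. MitoPark 2 held 60 of the 61 counts of this gene in MitoParks, the groups overlap, and without that mouse the gene was not tested.

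Slc6a5, which encodes GlyT2 and marks glycinergic neurons, was nearly absent from most libraries. It had 0, 1 and 3 counts in controls 1, 2 and 3 and 1, 60 and 0 counts in MitoParks 1, 2 and 3, so that 5 of the 6 mice were at or under the limit of 3 counts. Of the 61 counts in MitoParks, 98.4% came from MitoPark 2, at 6.07 CPM. The fitted log2 fold change was 3.87 with a standard error of 1.61 (unadjusted p = 0.039, edgeR's quasi-likelihood test), and the groups overlapped (exact two-sided permutation test, p = 0.7, where 3 mice against 3 cannot give less than 0.1). Without MitoPark 2 the gene did not pass the filter on low counts and both groups were at or under the limit of detection. The call was also lost without control 1 (unadjusted p = 0.1) and without control 2 (unadjusted p = 0.098), with robust dispersion (unadjusted p = 0.108), with DESeq2 (unadjusted p = 0.118) and with limma-voom (unadjusted p = 0.345).

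MitoPark 2 differed from the other mice in hindbrain genes as well. A list of 6 such genes, among them Hoxa2, Hoxb2, Hoxa3, Hoxb3 and Hoxb5, summed to 3.24 CPM in MitoPark 2 and to between 0 and 0.34 CPM in the other 5 mice. Hoxa3 had 9 counts and Hoxb3 had 8 counts in MitoPark 2 and at most 1 count in any other mouse, while Hoxb5 had none in all 6 mice. With Slc6a5 at 3 counts or fewer in all controls, RNA that marks glycinergic neurons was at or under the limit of detection in control tissue. The part of hindbrain or cerebellar tissue in the Slc6a5 value of MitoPark 2 was not tested.

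**Figure D3:**
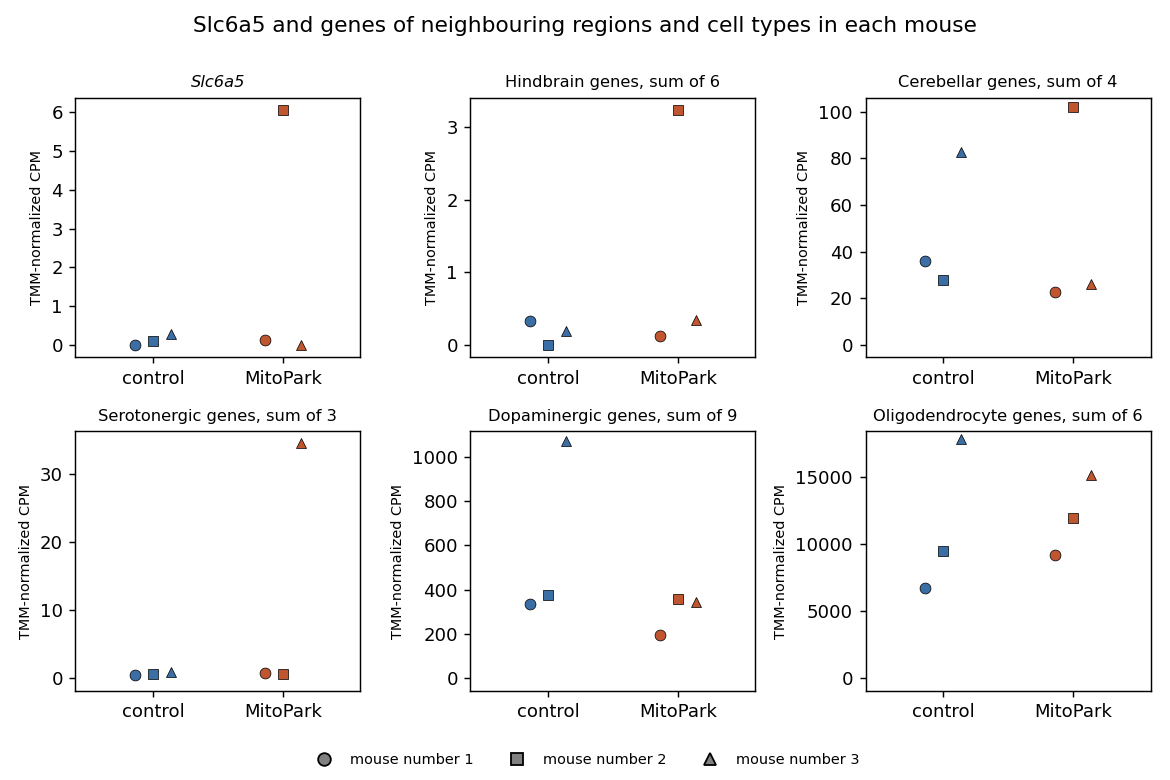
TMM-normalized CPM (y axis) of Slc6a5 and summed CPM of gene lists for hindbrain, cerebellum, serotonergic neurons, DAergic neurons and oligodendrocytes, with 1 point per mouse and the symbol giving the mouse number. MitoPark 2 is highest for Slc6a5 (6.07), the hindbrain genes (3.24) and the cerebellar genes (102), MitoPark 3 for the serotonergic genes (34.6) and control 3 for the DAergic genes (1070) and the oligodendrocyte genes (17800).

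The glycine receptor genes had log2 fold changes of opposite sign, and neither passed the test. Glra1, the adult alpha subunit that binds glycine, was at 15.7, 18.0 and 20.2 CPM in controls and at 15.4, 25.5 and 22.1 CPM in MitoPark mice, with MitoPark 1 below every control and the other two MitoParks above every control. Its log2 fold change was 0.22 (standard error 0.19, interval -0.21 to 0.65, unadjusted p = 0.273). Without MitoPark 1 it was 0.41 (unadjusted p = 0.0334), which is below the 1.5-fold cutoff, and without MitoPark 2 it was 0.07.

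Glrb encodes the beta subunit, which anchors the receptor to the scaffold protein gephyrin. It was at 244, 334 and 359 CPM in controls and at 220, 330 and 250 CPM in MitoPark mice, so that each MitoPark was below the control of middle level but 2 of them exceeded control 1. The log2 fold change of -0.23 had a standard error of 0.18 and an interval from -0.64 to 0.19 (unadjusted p = 0.245). Without MitoPark 2 it was -0.40 (unadjusted p = 0.0495), which is short of the 1.5-fold cutoff, and without MitoPark 1 it was -0.097.

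Set against each other within a mouse, the receptor genes gave ratios that did not overlap between the groups. The log2 ratio of Glra1 counts to Glrb counts, which does not depend on library depth or scaling, was -3.95, -4.21 and -4.15 in controls 1, 2 and 3 and -3.83, -3.69 and -3.50 in MitoParks 1, 2 and 3. Every MitoPark was above every control, with means of -4.10 ± 0.13 in controls and -3.67 ± 0.17 in MitoParks (SD, n = 3 each) and a difference of 0.43. Leaving out single mice gave differences from 0.34 to 0.51, whose sign could not turn because every MitoPark was above every control. This ratio was 1 of 5 that were computed, and it was described without a test. Over all arrangements of 6 mice into groups of 3, a share of 0.1 separates the groups fully. No share over other gene pairs was computed. The smallest gap between the groups, from control 1 to MitoPark 1, was less than the SD within either group.

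The other 4 ratios overlapped between the groups. The log2 ratio of Gad1 to Gad2 was -0.36, 0.05 and 0.06 in controls and -0.11, -0.05 and 0.28 in MitoParks. The ratio of Pvalb to Slc32a1 covered nearly the same wide range in both groups, from -2.77 to -0.71 in controls and from -2.77 to -0.85 in MitoParks. Slc6a11 exceeded Slc6a9 in counts by between 5.51-fold and 7.3-fold in every mouse. The ratio of Slc6a5 to Slc32a1 was -4.17 in MitoPark 2 and at or below -8.23 in the other mice, and the difference between the groups turned from 1.33 to -0.69 without MitoPark 2.

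**Figure D4:**
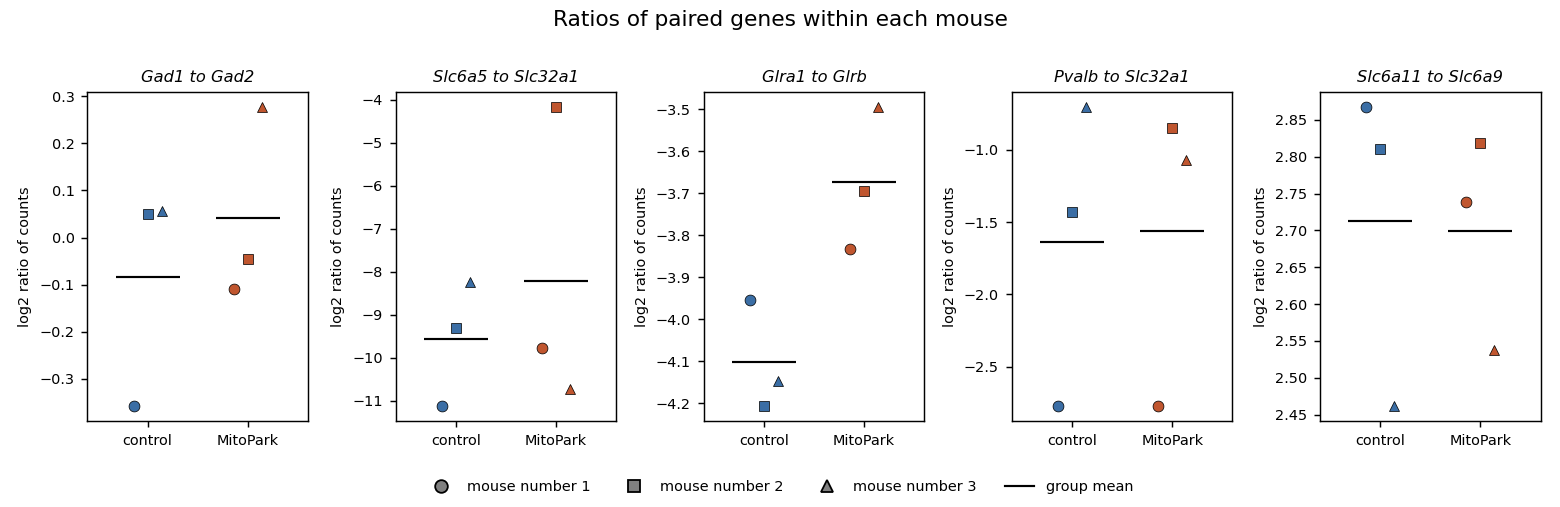
Log2 ratio of the counts of paired genes within each mouse (y axis, with an offset of 0.5 counts), with 1 point per mouse, the symbol giving the mouse number and the line the group mean. The groups do not overlap for Glra1 to Glrb, at -4.21 to -3.95 in controls and -3.83 to -3.50 in MitoParks, and overlap in the other 4 panels.

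To compare levels between genes, CPM were divided by transcript length, using for each gene its longest transcript in GENCODE M21. Slc6a11 had the highest level in controls, at 204 ± 14.6 CPM per kb (SD, n = 3), above the range of every other gene. Glrb followed at 103 ± 20.0 CPM per kb and Gad1 at 97.5 ± 14 CPM per kb, which did not differ beyond their spread, and Gad2 at 66.4 ± 21.1 CPM per kb overlapped with both. Pvalb at 39.0 ± 23.2, Slc32a1 at 37.7 ± 6.22 and Slc6a9 at 37.5 ± 8.63 CPM per kb could not be ordered, and the highest control for Pvalb lay within the range of Gad2. Glra1 was lower, at 7.52 ± 0.942 CPM per kb, and Slc6a5 was last, at 0.0183 CPM per kb. In MitoParks, Gad1 stood before Glrb, at 111 ± 16.0 against 88.0 ± 18.8 CPM per kb (SD, n = 3), again with overlapping ranges. This order depends on the transcript length used. The longest transcript of Slc6a9 has 3479 bases and the median over its 12 transcripts is 1270 bases, so a shorter transcript would place it well above Slc32a1, which has 1 transcript of 2797 bases.

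**Figure D5:**
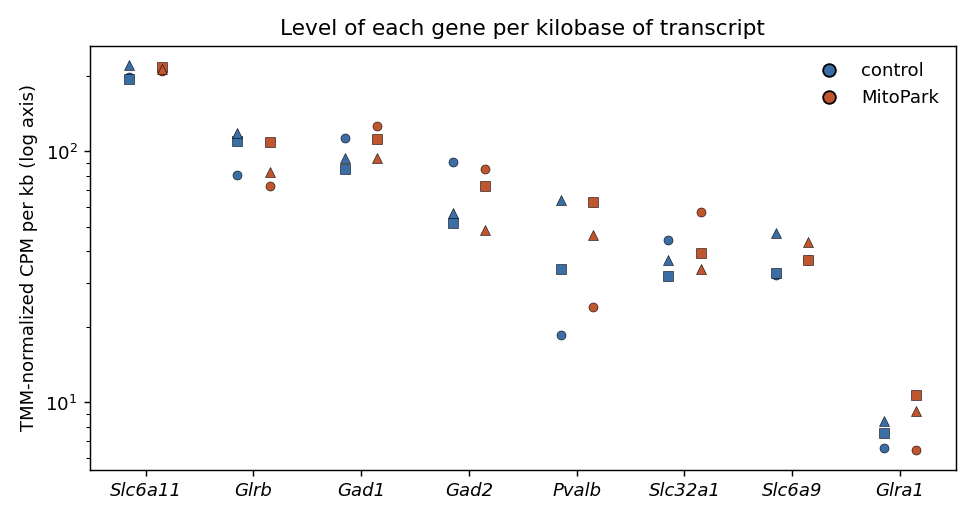
CPM per kb of transcript (y axis, log scale) of 8 of the 9 genes, with 1 point per mouse in controls and MitoParks and the symbol giving the mouse number; Slc6a5 is left out because most of its values were at or under the limit of detection. Slc6a11 lies highest, between 194 and 221 CPM per kb in controls, and Glra1 lowest, between 6.57 and 8.45.

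Other genes of inhibitory transmission were read from 8 lists that together hold 57 genes, of which 54 were tested. None passed both cutoffs, against 0.577% of all genes tested. For 1 gene, Cck, the unadjusted p was below 0.05, against 1.11% of all genes tested. Of the 54, 22 had a positive and 32 a negative log2 fold change, with a median of -0.05.

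The genes that take up, break down and supply GABA showed small differences. None of 5 uptake and breakdown genes had an unadjusted p below 0.05, and their median log2 fold change was 0.03. Slc6a13, a transporter of the meninges and vessels, had the most positive value (0.50, unadjusted p = 0.176), and Slc6a12 the most negative (-0.36, unadjusted p = 0.608), both at under 10 CPM. Among 6 genes of glutamate and glutamine supply the median was -0.05, with Slc38a3 at 0.09 and Slc38a5 at -0.25.

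Other glycine receptor subunits were detected, among them Glra2 and Glra3. Of 9 tested genes for these subunits and for glycine metabolism, 6 had a positive and 3 a negative log2 fold change. Glra2, the alpha subunit best known from development, was at 44.7, 51.5 and 43.5 CPM in controls and at 37.7, 45.3 and 38.2 CPM in MitoPark mice (log2 fold change -0.20, unadjusted p = 0.143). Glra3 had the most negative value of the list, -0.44 (unadjusted p = 0.147). Amt, which encodes the aminomethyltransferase of the glycine cleavage system, had the most positive, 0.19, and was the 1 gene of the 54 whose groups did not overlap (4.71% of all genes), at 16.4 to 17.6 CPM in controls and 18.5 to 20.0 CPM in MitoParks (unadjusted p = 0.156).

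The 7 genes of the inhibitory postsynaptic scaffold had a median log2 fold change of -0.04 and values between -0.12 for Slitrk3 and 0.20 for Shisa7. Gphn, which encodes gephyrin, was at 79.8 ± 2.46 CPM in controls and 82.1 ± 9.87 CPM in MitoParks (SD, n = 3 each). The chloride transporter genes Slc12a2 and Slc12a5, which set the chloride gradient that GABA acts on, had log2 fold changes of -0.09 and -0.17.

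Interneuron markers and calcium-binding protein genes had a median log2 fold change of -0.17 over 10 genes, 7 of them below 0. Cck, which encodes the neuropeptide cholecystokinin, was at 17.8, 27.1 and 28.6 CPM in controls and at 18.3, 16.2 and 19.5 CPM in MitoPark mice, with control 1 among the MitoParks. Its log2 fold change was -0.45 (standard error 0.19, unadjusted p = 0.0368), which did not reach the 1.5-fold cutoff. Cck is expressed by many DAergic neurons too. Vip was at -0.71 (unadjusted p = 0.0909) on fewer than 6 CPM in every mouse, and Lamp5 had the most positive value, 0.50 (unadjusted p = 0.103).

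Transcription factors of GABA and glycine neurons gave 4 positive and 4 negative log2 fold changes among 8 tested genes, from -0.29 for Lhx1 to 0.71 for Gata3 (unadjusted p = 0.413). Perineuronal net genes, whose proteins surround many parvalbumin neurons, had 6 of 7 values below 0, from -0.20 for Hapln1 to 0.19 for Bcan, and none with an unadjusted p below 0.05.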

How the data were processed

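RNA from the SN of 3 MitoParks and 3 littermate controls was analysed. According to the methods and the submitters' processing notes, the authors mapped reads from stranded polyadenylated libraries to UCSC transcripts with Bowtie2 2.1.0 and deposited expected counts per gene from RSEM 1.2.15 without normalization. The methods also describe a second pipeline, HISAT2 alignment with a RefSeq annotation and RPKM values, whereas the deposited values are RSEM counts. The genome build behind the UCSC transcripts is not given in the sources used here, the notes name a human build, and no gene coordinates were taken from the files.

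The expected counts were rounded, genes were kept where the mean of either group exceeded 1 CPM, and edgeR 4.0.16 (R 4.3.3) fitted a quasi-likelihood model of the 2 groups over all 14568 genes after TMM normalization. DEGs had to pass both a fold change of 1.5 and an unadjusted p of 0.05. The Benjamini-Hochberg correction covered every gene tested. Intervals of fold changes use a standard error worked back from the fold change and the test statistic of this fit. Exact permutation tests used log2(CPM + 0.1). Ratios used counts with an offset of 0.5. Intervals and limits from counts cover counting error only, since no molecular identifiers are described. The code was tested on simulated data.

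The 9 genes and the gene lists were chosen with earlier results of these data known. Named list genes are those with an unadjusted p below 0.05 and, in each list, the highest and lowest log2 fold change. Gabra6, Gfap, Glra2, Gphn, the Hox genes and the genes given by mouse under other observations, outside the likeness lists, were named after their values were seen. Some list genes are not reported here by name. The planned likeness list for Slc6a5 and Glra1 is not given, since Slc6a5 was at or under 3 counts in 5 mice. Promoters came from RefSeq (GRCm38.p6) and transcript lengths from GENCODE M21. Within groups, counts of any pair of mice differed by more than sampling noise (smallest chi-square 8.38 for each degree of freedom), so no library was treated as a duplicate; the labels name separate mice. The labels give no litter or extraction batch, and p-values measure the spread between these 6 mice. Alternatives included DESeq2 1.42.0 and limma 3.58.1 (voom).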

Additional observations from a re-analysis of the deposited data

How the results depend on the processing

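Of the 9 genes, 1 passed both cutoffs. The number was 0 with edgeR's filterByExpr, with robust dispersion, with DESeq2 and with limma-voom, and it ranged from 0 to 2 with each mouse left out in turn. Pvalb joined Slc6a5 without control 3. Slc6a5 could not be tested in any setting without MitoPark 2. Gad2 turned to -0.0838, Slc6a9 was at 0.313 (unadjusted p = 0.0513), Pvalb was at 0.417, and 0 of the 9 genes passed, when control 3 and MitoPark 2 were both left out, a setting chosen after seeing the data, which gave 374 DEGs among all genes and 4 among the list genes (Gata3, Glra3, Nos1 and Tal1). Log2 fold changes with each mouse left out ranged from -0.12 to 0.35 for Gad2, -0.0284 to 0.357 for Slc32a1, -0.0327 to 0.268 for Slc6a9 and -0.14 to 0.75 for Pvalb, and, with no change of sign, from 0.0924 to 0.309 for Gad1, 0.0284 to 0.124 for Slc6a11, 0.0663 to 0.412 for Glra1 and -0.404 to -0.097 for Glrb. Over all genes, 84 DEGs became 176 without a filter and 62 to 219 with single mice left out (133 without control 1, 219 without control 3 and 217 without MitoPark 2). Of the list genes 0 to 4 passed: 4 without control 1 (Cck, Six3, Slc6a13 and Vip), 2 without control 3 (Gata3 and Tal1), 3 without MitoPark 2 (Glra3, Nos1 and Six3) and 1 without MitoPark 3 (Lamp5).

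The labels give the groups the same replicate numbers. Correlations between mice of the same number, after subtracting group means, were 0.307, -0.074 and 0.244 for numbers 1, 2 and 3. Whether mice of the same number shared a batch or dissection was not tested. With a replicate block, 126 genes in all passed, against 84 without it. Among them were 1 of the 9 genes (Slc6a5) and 1 list gene (Gata3). For genes at the level of Slc6a5, depth limits detection to about 3 counts.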

Other observations

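Gata3, a factor that specifies GABAergic neurons of the midbrain and brainstem, was at 1.00, 0.95 and 8.31 CPM in controls 1, 2 and 3 and at 1.34, 5.76 and 9.75 CPM in MitoPark mice 1, 2 and 3. Tal1, its partner in these neurons, was at 2.56, 1.90 and 9.38 CPM in controls and at 2.44, 5.46 and 8.28 CPM in MitoPark mice. Control 3, MitoPark 2 and MitoPark 3 were the 3 highest mice for both genes, and they were also the 3 highest for Pvalb. The same 3 mice were highest for Gata2, at 4.01, 4.37 and 8.11 CPM in controls and at 3.05, 5.76 and 12.7 CPM in MitoPark mice. The other detected factors of the same list were ordered differently. Sox14, also a factor of midbrain GABAergic neurons, was at 3.79, 3.04 and 0.782 CPM in controls and at 3.41, 1.52 and 2.49 CPM in MitoPark mice, lowest in control 3. Control 3, MitoPark 2 and MitoPark 3 were also highest for the summed oligodendrocyte genes, at 17800, 11900 and 15100 CPM against 6700 to 9450 CPM. The astrocyte and endothelial sums had the same 3 highest mice, and the other marker lists did not. MitoPark 3, highest for Gata2 and Gata3, also held the most serotonergic RNA (34.6 CPM). A part of tissue composition in these values was not tested.

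Hapln1, a perineuronal net gene, was at 6.79, 12.1 and 22.9 CPM in controls and at 5.61, 18.5 and 12.1 CPM in MitoPark mice, lowest in control 1 and MitoPark 1 as Pvalb was. The neurofilament gene Nefh was at 138, 170 and 284 CPM in controls and at 134, 284 and 191 CPM in MitoPark mice, with the same 2 lowest and the same 2 highest mice as Pvalb. Sst, which encodes somatostatin, was highest in the mice with the least Pvalb, at 86.6 CPM in control 1 and 107 CPM in MitoPark 1, against 34.0 to 57.6 CPM in the other mice.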
